A study of Mus musculus with 15 samples.

Results

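Schwann cells, which wrap and myelinate peripheral axons, and satellite glia, which enclose the cell bodies of sensory neurons, are the main glia of the dorsal root ganglion. Their transcripts are followed here through 31 genes, chosen by name as genes of myelinating Schwann cells, of Schwann cells after injury and of satellite glia. All 31 were found among the 39179 gene identifiers of the count table. They were read in messenger RNA of whole lumbar 4 to 6 ganglia from 15 mice of 3 to 6 months on a mixed, mainly C57bl6, background, with 1 library per animal.

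Knockout mice (Wnt1-Cre; mirflox/flox) lack the miR-183 cluster, which encodes miR-183, miR-96 and miR-182, in cells that descend from Wnt1-expressing neural crest. Sensory neurons, Schwann cells and satellite glia all have that origin, so the deletion is not limited to neurons. The injured groups held 3 knockout mice (replicates 13, 19 and 21) and 3 control mice (15, 18 and 23). Their common peroneal and tibial nerves were tied and cut while the sural nerve was left, an operation called spared nerve injury (SNI). The uninjured, naive groups held 4 knockout mice (4, 5, 8 and 9) and 5 control mice (1, 2, 3, 6 and 7). Of the controls, SNI replicates 18 and 23 and naive replicate 7 were wild type without Cre, and the others carried Wnt1-Cre alone. Injured and naive mice, and injured knockout and injured control mice, come from separate ranges of animal numbers (948 to 956 for knockout SNI, 974 to 976 for control SNI, and 1041 to 1082 for the naive mice). Any effect of that order cannot be told apart from injury or, among injured mice, from genotype.

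Myelinating Schwann cells switch on Egr2 under the control of Sox10 and of neuregulin signals received through Erbb3, and Egr2 drives the genes of the myelin sheath. When an axon is cut, the Schwann cells of the nerve beyond the cut lower these genes and turn into repair cells, which make growth factors and clear myelin. The ganglion lies on the other side of the cut, where axons stay joined to their cell bodies, and there satellite glia are known to raise the filament protein gene Gfap.

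The mature microRNAs that the knockout removes are shown because their seeds decide which messages they can bind. Bases 2 to 8, the seed, are in capitals, and no pair of them shares the whole seed. The sequences are those of RefSeq on GRCm38.p6, on the minus strand of chromosome 6 at chr6:30169711-30169732, chr6:30169506-30169528 and chr6:30165962-30165986.
miR-183-5p: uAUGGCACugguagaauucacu
miR-96-5p: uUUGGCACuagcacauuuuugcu
miR-182-5p: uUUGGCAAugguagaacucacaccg

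Full seed matches, called 8mers (the match to the seed followed by an A), stood in the longest annotated 3′ UTR of 3 members, and those sites are shown with the 8mer in capitals. L1cam and Cdh19 hold a miR-182-5p site at bases 225 to 232 of 1257 and 304 to 311 of 1372, and Gfap holds a miR-183-5p site at bases 1326 to 1333 of 1341.
L1cam: taccctctttaTTGCCAAAacccagctgca
Cdh19: aaatgagaaatTTGCCAAAgaaagctatcc
Gfap: aataaagacatGTGCCATAgacttcca

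That is 9.68% of the 31 members, against 10.2% of the 14466 tested genes with an annotated 3′ UTR. With 7-base matches added, 11 members (35.5%) held a site, against 29.4% of those genes. In naive mice, where no injury was involved, the 3 members with an 8mer did not pass the test between knockout and control, at log2 fold changes of 0.01 (L1cam), -0.18 (Cdh19) and -0.50 (Gfap). The AP-1 motif TGANTCA, searched on both strands from 250 bases before to 50 after each start, was present in 1 of 37 member promoters (that of Gldn), or 2.7%, against 7.81% of all promoters. These 37 belong to 21 of the 31 members, some of which have several starts with overlapping promoters. The SOX motif ACAANG was in 43.2% against 41.2%, and the EGR motif GCGTGGGCG in none of the 37, against 0.612%.

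The libraries held 5.25 to 10.8 M counts. A gene without a count could therefore still stand at up to 0.277 (deepest library) to 0.571 (shallowest) CPM (counts scaled to a library of 1 M), as far as counting error goes. The microRNA genes themselves gave 0 (Mir183), 1 (Mir96) and 2 (Mir182) counts over all libraries, all of them in controls, which is too few to check the deletion. Control SNI replicate 23 stood apart from the other libraries on the second principal component. On the first it lay at -30.4, past the naive libraries (-21.1 to -8.62), while the other injured libraries lay at 14.0 to 45.4. Replicate 23 also had the lowest depth and a mitochondrial share of 7.43%, where the other libraries had 2.26 to 3.60%. Of the 31 members, 30 passed the filter on low counts. The member left out was Olig1, a transcription factor gene of oligodendrocytes and injured Schwann cells, with 3 counts in all libraries together.

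Per exonic length, Pmp22 and Apod were the most abundant members in control naive ganglia, at 1148 and 519 CPM per kb. Pmp22 encodes a membrane protein of compact myelin, and Apod a lipid carrier of glia and fibroblasts. S100b, a calcium-binding protein of all Schwann cells and of satellite glia, followed at 450.2 CPM per kb, then Mbp, the protein that holds the inner faces of the myelin membrane together, at 314 CPM per kb. Fabp7, a fatty acid-binding protein of satellite glia, reached 196 CPM per kb. At the low end stood the promyelinating transcription factor gene Pou3f1, Gfap and Btc, the gene of an epidermal growth factor receptor ligand, at 0.712, 0.615 and 0.255 CPM per kb. The members therefore spanned more than 3 powers of 10 in level, and the low ones rest on few counts. Btc had 7 to 67 counts per library and Gfap 10 to 145.

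**Figure D1:**
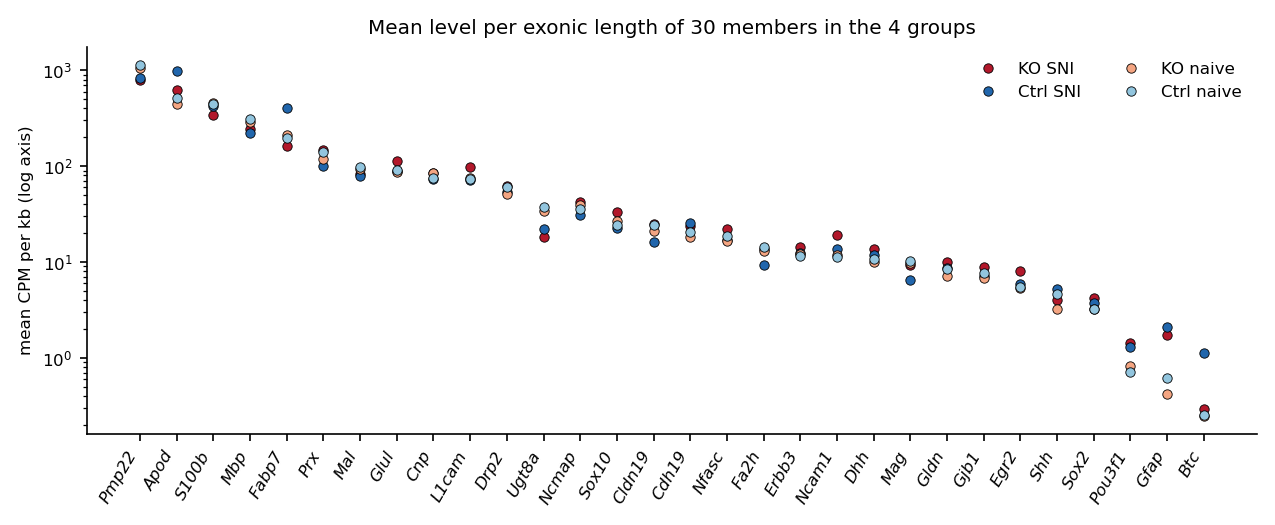
Mean CPM per kb of exonic length (log axis) for 30 members (horizontal axis, ordered by the control naive mean) in the 4 groups: knockout (KO) SNI, control (Ctrl) SNI, KO naive and Ctrl naive. Pmp22 led at 1148 CPM per kb in control naive ganglia, and the groups lay furthest apart for Gfap and Btc at the low end.

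The tissue was checked against glial and other markers. The 12 members that belong to the myelin sheath summed to 4225 to 9496 CPM in every library. Markers of oligodendrocytes, the myelinating cells of the spinal cord, were close to 0. The 6 of them together reached 0.647 to 3.33 CPM. Their counts over all libraries were 1 (Opalin), 2 (Olig2), 20 (Mog), 50 (Hapln2), 69 (Mobp) and 110 (Ermn).

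Injury against naive ganglia asks how the glial genes respond in the ganglion to cutting distal branches of the nerve. In knockout mice 3 of 30 tested members rose (Gfap, Ncam1 and Glul) and 2 fell (Ugt8a and S100b). Over all 16976 tested genes 7.17% rose and 2.94% fell. In control mice 3 of 30 rose (Btc, Gfap and Apod) and 1 fell (Ugt8a), against 2.12% and 0.359% of all genes. Gfap and Ugt8a passed in both genotypes. The groups did not overlap for 10 members in knockout mice, against 34.2% of all genes, and for 4 in control mice, against 8.21%. The median log2 fold change of the 30 members was 0.32 in knockout mice and -0.05 in control mice, with medians of -0.02 and 0.02 over all genes.

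**Figure D2:**
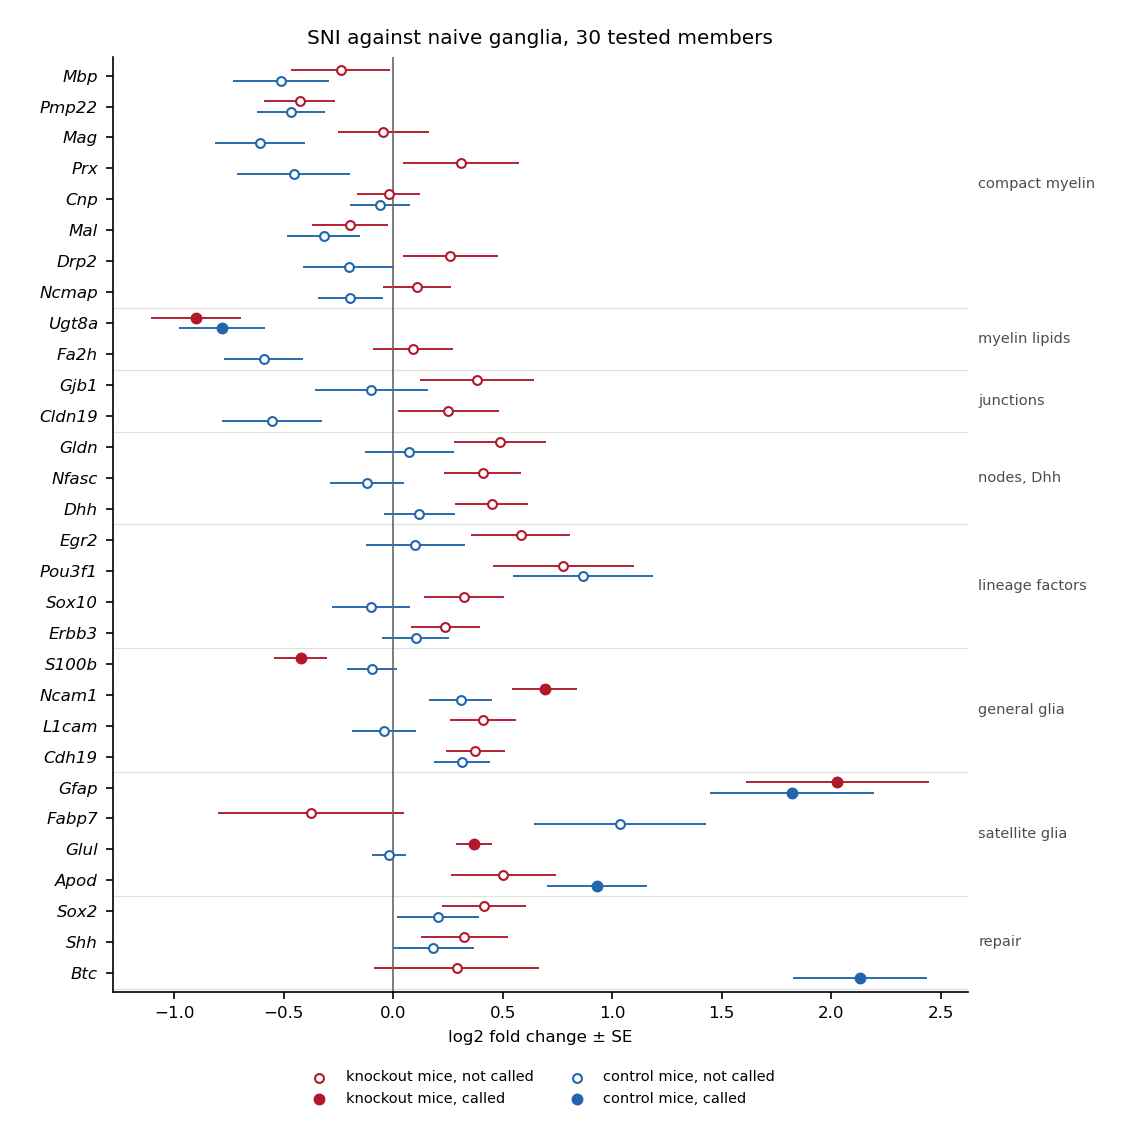
Log2 fold change ± SE (horizontal axis) of SNI against naive ganglia for the 30 tested members (vertical axis, grouped by role) in knockout mice (upper point, red) and control mice (lower point, blue). Filled points passed the test: 5 members in knockout mice and 4 in control mice, with Gfap at 2.03 and 1.82 and Ugt8a at -0.90 and -0.78 in the 2 genotypes.

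Among the myelin genes, Ugt8a fell with injury in both genotypes. It encodes the galactosyltransferase that makes the main glycolipids of myelin, and lies on chromosome 3 (GRCm38, 125865271 to 125938619). In control mice this call depended on the setting. In knockout mice its level was 53.8, 92.8 and 101 CPM after SNI (replicates 13, 19 and 21), against 158, 140, 181 and 138 CPM in naive ganglia (replicates 4, 5, 8 and 9). Every injured knockout library lay below every naive one, and the log2 fold change was -0.90 (SE 0.204, adjusted p = 0.0121). In control mice it was 95.9, 87.6 and 117 CPM after SNI (replicates 15, 18 and 23), against 196, 151, 219, 139 and 153 CPM in naive ganglia (replicates 1, 2, 3, 6 and 7). Again the groups did not overlap (log2 -0.78, SE 0.196, adjusted p = 0.0477). The call in knockout mice was kept when any 1 library was left out (adjusted p up to 0.0426), whereas the one in control mice was kept in 3 of 15 such fits (adjusted p up to 0.148, without control SNI replicate 18). All 5 other alternatives called Ugt8a in knockout mice. Of those that kept more than 1 injured control, only DESeq2 called it in control mice. The Wnt1-Cre controls alone leave replicate 15 as the only injured control, and there the log2 fold change in control mice was -0.86. The log2 fold change in control mice stayed between -0.90 and -0.66 in all of these fits.

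The other myelin members did not pass in either genotype. In injured control ganglia all 12 myelin members had a log2 fold change below 0, with a median of -0.46 (0.02 over all genes). Ugt8a and 5 others, 6 of the 12, had an unadjusted p under 0.05, as did 15.7% of all tested genes. Fa2h, the hydroxylase of myelin lipids, was at 28.0 ± 4.74 CPM after SNI, against 42.6 ± 4.56 CPM in naive control ganglia (SD, n = 3 and 5), with no overlap between the groups (log2 -0.59, adjusted p = 0.114). Mag, an adhesion protein of the membrane that faces the axon, was at 26.7 ± 7.55 against 41.3 ± 6.24 CPM (log2 -0.61, adjusted p = 0.161). For Pmp22 the levels were 1954 ± 380 and 2701 ± 421 CPM (log2 -0.47, adjusted p = 0.15) and for Mbp 1866 ± 229 and 2660 ± 611 CPM (log2 -0.51, adjusted p = 0.277).

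In knockout mice the same 12 genes were split, 6 above and 6 below 0, with a median of 0.04. Prx and Drp2, whose proteins join in a complex that shapes the cytoplasmic channels of the myelinating cell, had log2 fold changes of 0.31 and 0.26 in knockout and -0.45 and -0.20 in control mice, none of which passed. Pmp22 was at 1416, 1999 and 2172 CPM after SNI, against 2541, 2309, 2827 and 2339 CPM in naive knockout ganglia. These groups did not overlap, but the change missed the threshold (log2 -0.43, adjusted p = 0.101). For Mbp the injured knockout libraries were at 1295, 1986 and 2908 CPM, on both sides of the naive ones (2455, 2291, 2681 and 2310 CPM). The spread among the 3 injured knockout mice was therefore wider than the difference between the groups.

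The myelin genes moved together from animal to animal. In knockout SNI replicate 13 all 12 were at their lowest of the 3 libraries, and in replicate 21 the levels of 11 were the highest. Taken relative to the mean of control naive mice, the median of the 12 was 0.609 in replicate 13, 1.04 in replicate 19 and 1.24 in replicate 21. Among control naive mice, replicate 3 was highest for all 12, with a median of 1.24, while replicate 6 had 0.828. Among naive knockout mice replicate 8 was highest for 10 of 12. The injured control libraries had medians of 0.778, 0.785 and 0.667. Without knockout SNI replicate 13 the injury effect in knockout mice had 10 of 12 myelin genes above 0 (median log2 0.21), and without replicate 21 only 4 (median -0.13). In control mice between 10 and 12 stayed below 0 whichever single library was left out, with a median of -0.51 to -0.36. In whole ganglia fewer Schwann cells, or less of the attached nerve, and less RNA per cell cannot be told apart.

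**Figure D3:**
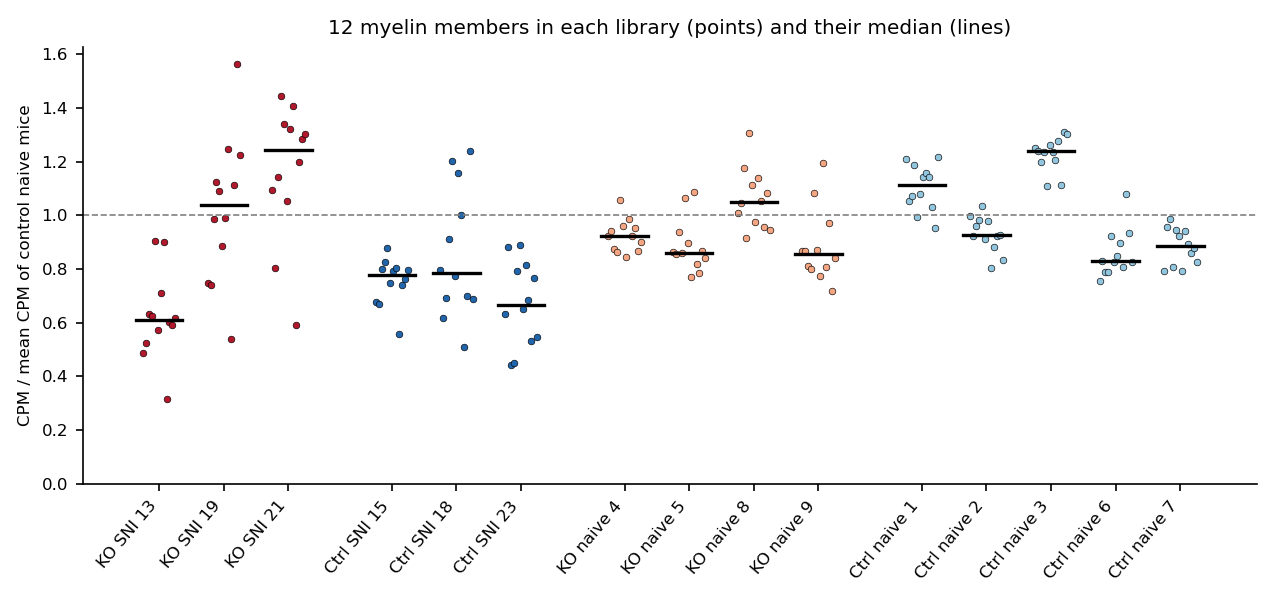
Level of the 12 myelin members in each library relative to the mean of control naive mice (vertical axis, CPM ratio; 1 point per gene), with the median of the 12 as a bar, for KO SNI, Ctrl SNI, KO naive and Ctrl naive libraries. The medians ran from 0.609 (KO SNI 13) to 1.24 (KO SNI 21) within injured knockout mice and from 0.667 to 0.785 in injured control mice.

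At the nodes of Ranvier, Gldn encodes gliomedin, which gathers sodium channels, and Nfasc encodes neurofascin, with glial and neuronal forms that these counts do not separate. Dhh, a hedgehog ligand that Schwann cells send to the cells of the nerve sheath, is placed with them. All 3 were above 0 in injured knockout mice, at 0.49 (Gldn), 0.41 (Nfasc) and 0.45 (Dhh) on the log2 scale, and none passed (adjusted p = 0.149, 0.145 and 0.0983). In control mice they were at 0.07, -0.12 and 0.12. Dhh was at 60.6 ± 17.9 CPM after SNI against 44.5 ± 3.09 CPM in naive knockout ganglia, and at 51.6 ± 8.62 against 47.8 ± 5.73 CPM in control ganglia. Nfasc was at 296, 339 and 307 CPM in injured knockout ganglia, against 279, 218, 208 and 242 CPM in naive knockout ganglia, without overlap.

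The lineage factors did not pass either. Egr2 was at 17.4, 33.1 and 30.6 CPM after SNI, against 15.7, 15.8, 23.8 and 17.4 CPM in naive knockout mice (log2 0.58, adjusted p = 0.114). Replicate 13 was again the lowest of the injured libraries, and without it Egr2, Sox10 and Dhh were called higher. Sox10 stood at 101 ± 32.0 CPM after SNI against 80.8 ± 6.08 CPM in naive knockout ganglia, and at 68.6 ± 17.8 against 74.0 ± 4.16 CPM in control ganglia. Erbb3 stood at 86.0 ± 15.4 against 73.0 ± 2.38 CPM in knockout and at 74.3 ± 23.4 against 69.7 ± 4.86 CPM in control ganglia. Pou3f1, which acts before Egr2 in development, was near 0.8 on the log2 scale in each genotype, at 0.78 in knockout mice (adjusted p = 0.132) and 0.87 in control mice (adjusted p = 0.2), from 542 counts in all.

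Of the general glial genes, Ncam1 rose and S100b fell with injury in knockout mice. Ncam1 (chromosome 9, 49502136 to 49798925) encodes an adhesion molecule of non-myelinating Schwann cells and also of neurons. It was at 154, 187 and 155 CPM in injured knockout ganglia, against 97.7, 115, 98.4 and 98.5 CPM in naive ones. The groups did not overlap, and the rise was 0.69 on the log2 scale (SE 0.149, adjusted p = 0.00828; 0.0649 without knockout SNI replicate 19). In control mice it was at 156, 115 and 87.4 CPM after SNI, against 88.9, 93.4, 89.9, 115 and 97.3 CPM, and the change did not pass (log2 0.31, adjusted p = 0.309). The control value rested on single libraries. It was 0.07 without control SNI replicate 15, and 0.49 and called without replicate 23 (adjusted p = 0.0267). With the Wnt1-Cre controls alone, where replicate 15 is the only injured control, the log2 fold change was 0.71. The Ncam1 exons overlap the antisense gene Gm11149, which had 3734 counts in all. Without a stated strand setting the reads of such a pair cannot be told apart.

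S100b (chromosome 10, 76253853 to 76261159) was at 479, 498 and 544 CPM in injured knockout ganglia, against 691, 643, 723 and 661 CPM in naive ones (log2 -0.42, SE 0.122, adjusted p = 0.0377). In injured control ganglia it was at 522, 586 and 768 CPM, against 697, 686, 749, 561 and 646 CPM. There the groups overlapped, and the change was -0.10 on the log2 scale (adjusted p = 0.727). The call of S100b in knockout mice was kept in 5 of 15 fits that left out 1 library (adjusted p up to 0.142, without knockout SNI replicate 19). L1cam, an adhesion molecule of axons and non-myelinating Schwann cells, and Cdh19, a cadherin of the Schwann cell lineage, were at 0.41 and 0.37 in knockout mice, with no overlap and adjusted p of 0.0954 and 0.0874. In control mice they were at -0.04 and 0.31. L1cam stood at 727 ± 73.8 CPM after SNI against 547 ± 32.6 CPM in naive knockout ganglia, and at 527 ± 158 against 543 ± 70.0 CPM in control ganglia.

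Among the members, the satellite glial gene Gfap had the largest rise with injury in knockout mice. Gfap (chromosome 11, 102887336 to 102900912) was at 4.80, 10.4 and 6.70 CPM in injured knockout ganglia, against 1.83, 1.88, 2.09 and 1.31 CPM in naive ones. That is a 4.08-fold rise without overlap (log2 2.03, SE 0.418, adjusted p = 0.00712). In injured control ganglia Gfap was at 6.78, 14.97 and 4.53 CPM, against 2.46, 4.59, 2.61, 1.46 and 1.85 CPM in naive ones, a 3.53-fold rise (log2 1.82, SE 0.374, adjusted p = 0.0132). Control SNI replicate 23 lay just below control naive replicate 2, and the other injured libraries lay above all naive ones. Each call was kept in 14 of 15 fits that left out 1 library. It was lost in knockout mice without knockout SNI replicate 19 (adjusted p = 0.0535) and in control mice without control SNI replicate 18 (log2 1.18, adjusted p = 0.127). Of the 5 other alternatives all called Gfap in knockout mice and 3 in control mice. There the call was lost in the fit of these 8 libraries alone. With the Wnt1-Cre controls alone, where replicate 15 is the only injured control, the log2 fold change was 1.33.

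Glul (chromosome 1, 153899944 to 153909723) encodes glutamine synthetase, which in satellite glia turns glutamate into glutamine. It was at 353, 380 and 386 CPM in injured knockout ganglia, against 274, 284, 279 and 321 CPM in naive ones (log2 0.37, SE 0.0814, adjusted p = 0.00967). All injured knockout libraries lay above the naive ones, and the call was lost without knockout SNI replicate 19 (adjusted p = 0.0535). In injured control ganglia it was at 303, 300.3 and 294 CPM, inside the range of the naive ones (307, 293, 278, 323 and 315 CPM), at a log2 fold change of -0.02. The Glul exons overlap Teddm2 on the other strand, with 3955 counts in all, against 44395 for Glul.

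Apod (chromosome 16, 31296192 to 31314808) rose in control mice, to 1301, 2556 and 3790 CPM after SNI, against 1684, 1122, 1439, 1212 and 1231 CPM in naive ganglia (log2 0.93, SE 0.228, adjusted p = 0.0456). Replicate 15 lay among the naive libraries and replicates 18 and 23 above them. The call was kept in 2 of 15 fits that left out 1 library, those without control naive replicate 1 and without control SNI replicate 15, and under 2 of the 5 other alternatives. Without replicate 23 the value was 0.53 (adjusted p = 0.146, the highest of the 15). With the Wnt1-Cre controls alone, which leaves replicate 15 as the injured control, it was -0.05. In knockout mice Apod was at 1534, 1584 and 1758 CPM, against 1187, 1186, 1077 and 1136 CPM. These groups did not overlap, though the change missed the threshold (log2 0.50, adjusted p = 0.195). Without control SNI replicate 23, which enters the shared estimate of the spread, Apod passed in knockout mice (log2 0.52, adjusted p = 0.0483).

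Fabp7 was at 178, 211 and 221 CPM in injured knockout ganglia and at 282, 210 and 1024 CPM in injured control ganglia, whereas naive knockout libraries ranged from 208 to 305 and naive control libraries from 184 to 307 CPM. Replicate 23 alone carried the high value. The log2 fold change of injury in control mice was 1.04 (adjusted p = 0.224) with that library and 0.01 (adjusted p = 0.985) without it.

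Of the repair genes, only Btc passed, in control mice. Btc (chromosome 5, 91357261 to 91402994) encodes betacellulin, a ligand that Schwann cells make after nerve injury. It was at 3.02, 6.92 and 5.18 CPM in injured control ganglia, against 1.28, 1.72, 1.03, 0.911 and 0.831 CPM in naive ones, a 4.38-fold rise without overlap (log2 2.13, SE 0.306, adjusted p = 5.16e-04). In injured knockout ganglia it was at 0.885, 1.80 and 1.30 CPM, against 0.915, 1.49, 0.855 and 1.18 CPM, and the change of 0.29 on the log2 scale did not pass (adjusted p = 0.644). The rise in control mice was called in all 15 fits that left out 1 library (log2 1.78 to 2.42). With the Wnt1-Cre controls alone, where replicate 15, at 3.02 CPM, is the only injured control, the log2 fold change fell to 1.32. Sox2, which holds Schwann cells in an immature state, was at 8.74 ± 1.89 CPM after SNI against 6.60 ± 0.823 CPM in naive knockout ganglia, and at 7.72 ± 1.61 against 6.66 ± 1.03 CPM in control ganglia. Shh, a hedgehog ligand of injured Schwann cells, was at 11.4 ± 3.18 against 9.22 ± 1.92 CPM in knockout and at 14.8 ± 2.80 against 13.2 ± 1.82 CPM in control ganglia. Neither passed.

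**Figure D4:**
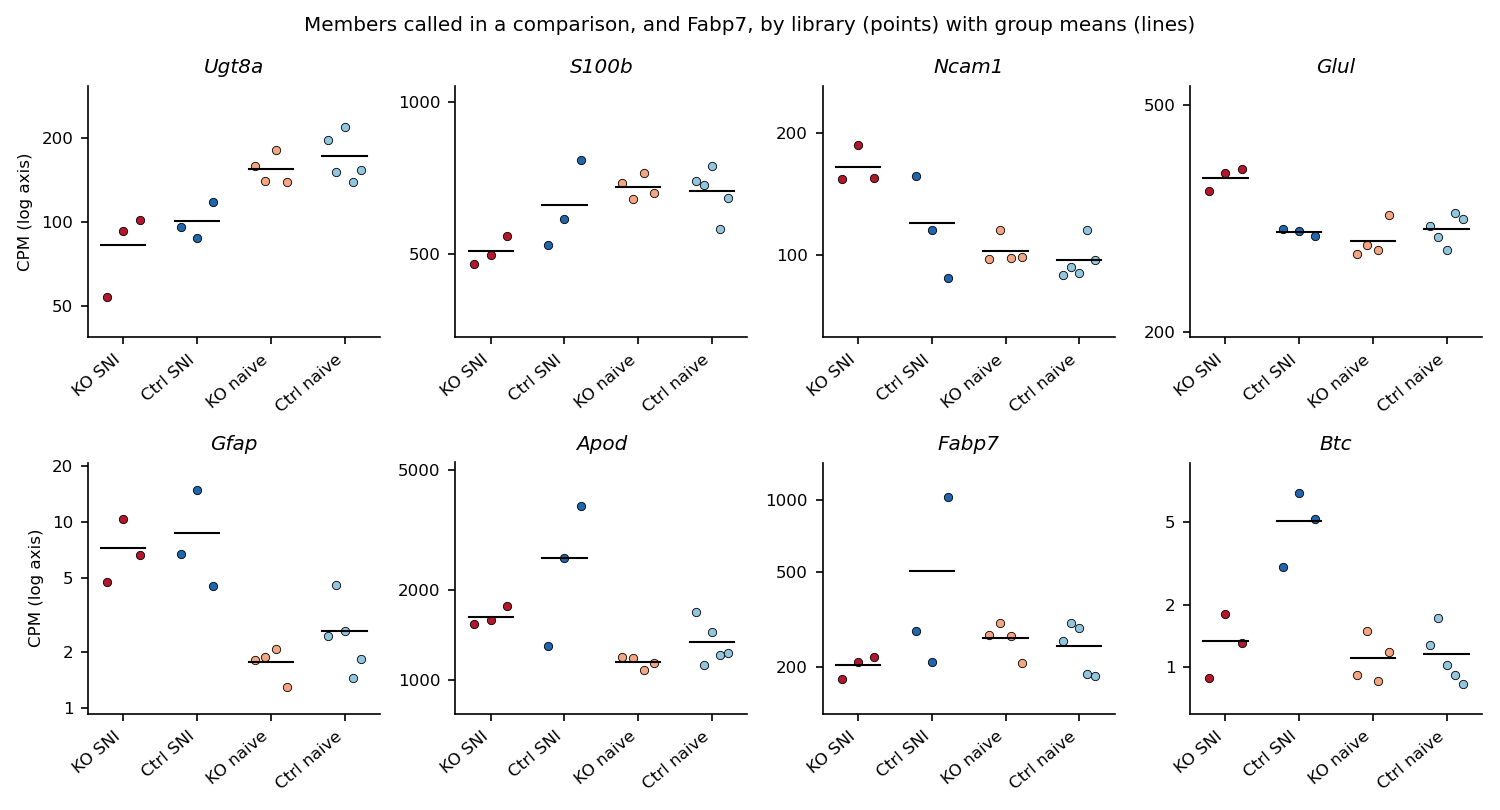
CPM (log axis) of the 7 members called in a comparison and of Fabp7 in each library (points, left to right in order of replicate number) with group means (lines), for KO SNI, Ctrl SNI, KO naive and Ctrl naive ganglia. Btc reached 3.02 to 6.92 CPM in injured control mice and at most 1.80 CPM in the other groups, and Fabp7 was at 1024 CPM in control SNI replicate 23 alone.

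Whether injury acts differently without the cluster was tested as the difference between the injury effects, knockout minus control. No member passed, nor did any other gene by edgeR's quasi-likelihood test (0.0% of all genes), while DESeq2 called 13 genes, none of them members. At an unadjusted p under 0.05 stood 7 of 30 members, against 13.4% of all tested genes. The difference was -1.84 (SE 0.492, adjusted p = 0.365) for Btc and -1.41 (SE 0.582, adjusted p = 0.365) for Fabp7 on the log2 scale. Those of Glul, Fa2h, Cldn19, Nfasc and L1cam were 0.39, 0.68, 0.81, 0.53 and 0.45, each with an adjusted p of 0.365 or more. Cldn19 encodes a claudin of the tight junctions in the myelin sheath. Of the 12 myelin genes 11 were above 0, with a median of 0.38. Without control SNI replicate 15 the same test called 1235 genes, among them 5 members: Nfasc, Ncam1 and L1cam higher, Apod and Btc lower. The Fabp7 difference was -0.37 without control SNI replicate 23.

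Knockout against control after SNI asks which glial genes depend on the cluster in the injured ganglion. A single member of 30 passed, Btc, which was lower in knockout mice, while 1.04% of all genes passed. With the levels given above, every injured knockout library was below every injured control library, and Btc was 3.69-fold lower (log2 -1.88, SE 0.350, adjusted p = 0.0154). Only Btc and Glul separated the groups without overlap, against 16.2% of all genes. Glul was at 373 ± 17.5 CPM in knockout and 299 ± 4.45 CPM in control mice after SNI (log2 0.32, SE 0.0877, adjusted p = 0.0874). The Btc call was kept in 13 of 15 fits that left out 1 library. It was lost without knockout SNI replicate 13 (adjusted p = 0.0509) or 21 (adjusted p = 0.08). The call was also lost in a fit of these 6 libraries alone (adjusted p = 0.422), in which no gene of the whole table passed. With the Wnt1-Cre controls alone, where replicate 15 is the only injured control, the log2 fold change fell to -1.16.

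Of the other members, 10 of the 12 myelin genes were above 0 in injured knockout mice, with a median log2 of 0.26 against -0.01 for all genes, and none passed. Cldn19 was at 107 ± 38.5 CPM in knockout against 69.5 ± 12.9 CPM in control mice after SNI (log2 0.62, adjusted p = 0.169). Fa2h was at 41.4 ± 13.8 against 28.0 ± 4.74 CPM (log2 0.55, adjusted p = 0.145), and Sox10 at 101 ± 32.0 against 68.6 ± 17.8 CPM (log2 0.55, adjusted p = 0.145). In each of these, knockout replicate 13 lay inside the control range and replicates 19 and 21 above it. Gjb1, the gap junction gene of myelinating Schwann cells, was at 15.2 ± 6.64 against 12.2 ± 3.63 CPM (log2 0.31), and Ncmap, a small membrane protein of noncompact myelin, had a log2 fold change of 0.44. Cnp, an enzyme of noncompact myelin, was at 0.21 and Mal, a lipid raft protein of myelin, at 0.06. The exons of Cnp overlap Dnajc7 on the other strand (27332 counts, against 41615 for Cnp), and those of Prx and Cldn19 overlap antisense genes (9147 and 1637 counts, against 104124 and 13622). Their values too depend on the strand setting. Pou3f1 overlaps an antisense gene with 7 counts, and Dhh and L1cam overlap genes on their own strand with 2846 and 959 counts.

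The injured control libraries were uneven for several members, of which 3 are given, chosen after their values were seen. Replicate 15, the 1 injured control with Wnt1-Cre, had 156 CPM of Ncam1, 706 of L1cam and 331 of Nfasc, all inside the knockout ranges of 154 to 187, 643 to 781 and 296 to 339 CPM. The wild-type replicates 18 and 23 had 115 and 87.4 CPM of Ncam1, 465 and 409 of L1cam and 223 and 167 of Nfasc, all below those ranges. Without replicate 15 the comparison called 3558 genes and 9 members (Nfasc, Sox10, Ncam1, L1cam and Glul higher, S100b, Fabp7, Apod and Btc lower). In the main fit it called 177 genes and 1 member, so calls over all genes grew as well. With replicate 15 as the only injured control the log2 fold changes were 0.08 for Ncam1, 0.04 for L1cam and -0.08 for Nfasc. A group of 1 library has no spread of its own, so calls of that fit are not set beside these. These values set 1 library against a pair that includes replicate 23, the library with 7.43% mitochondrial counts and the lowest depth. On the first principal component the wild-type replicates lay on both sides of replicate 15 (14.0). Replicate 18 (27.7) was nearer the injured knockout libraries (34.4 to 45.4). Replicate 23 (-30.4) was farther from them, past the naive libraries. With 1 injured control that carries Cre, an effect of Cre and one of the deletion cannot be told apart.

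In naive mice, knockout against control asks which glial genes depend on the cluster without injury. None of the 30 members passed edgeR's test, against 1.89% of all genes, and DESeq2 called none of them either. None separated the groups without overlap, against 9.63% of all genes. A single member, Shh, had an unadjusted p under 0.05, with 8.84, 7.73, 8.27 and 12.02 CPM in naive knockout ganglia, against 13.8, 15.2, 12.1, 14.1 and 10.5 CPM in naive control ganglia. The groups overlapped in knockout replicate 9 (log2 -0.52, SE 0.175, adjusted p = 0.192), and Shh passed in the fit of these 9 libraries alone (adjusted p = 0.0311). The exons of Shh overlap antisense genes with 325 and 715 counts, against 1709 counts for Shh. The most abundant members differed by less than 1 SD of the control libraries. Pmp22 was at 2504 ± 238 CPM in knockout and 2701 ± 421 CPM in control mice, Mbp at 2434 ± 180 and 2660 ± 611 CPM, S100b at 680 ± 35.1 and 668 ± 70.0 CPM, and Apod at 1146 ± 52.1 and 1337 ± 226 CPM (SD, n = 4 and 5). Over the members the log2 fold changes ran from -0.52 to 0.24, with a median of -0.09 (all genes 0.00138).

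**Figure D5:**
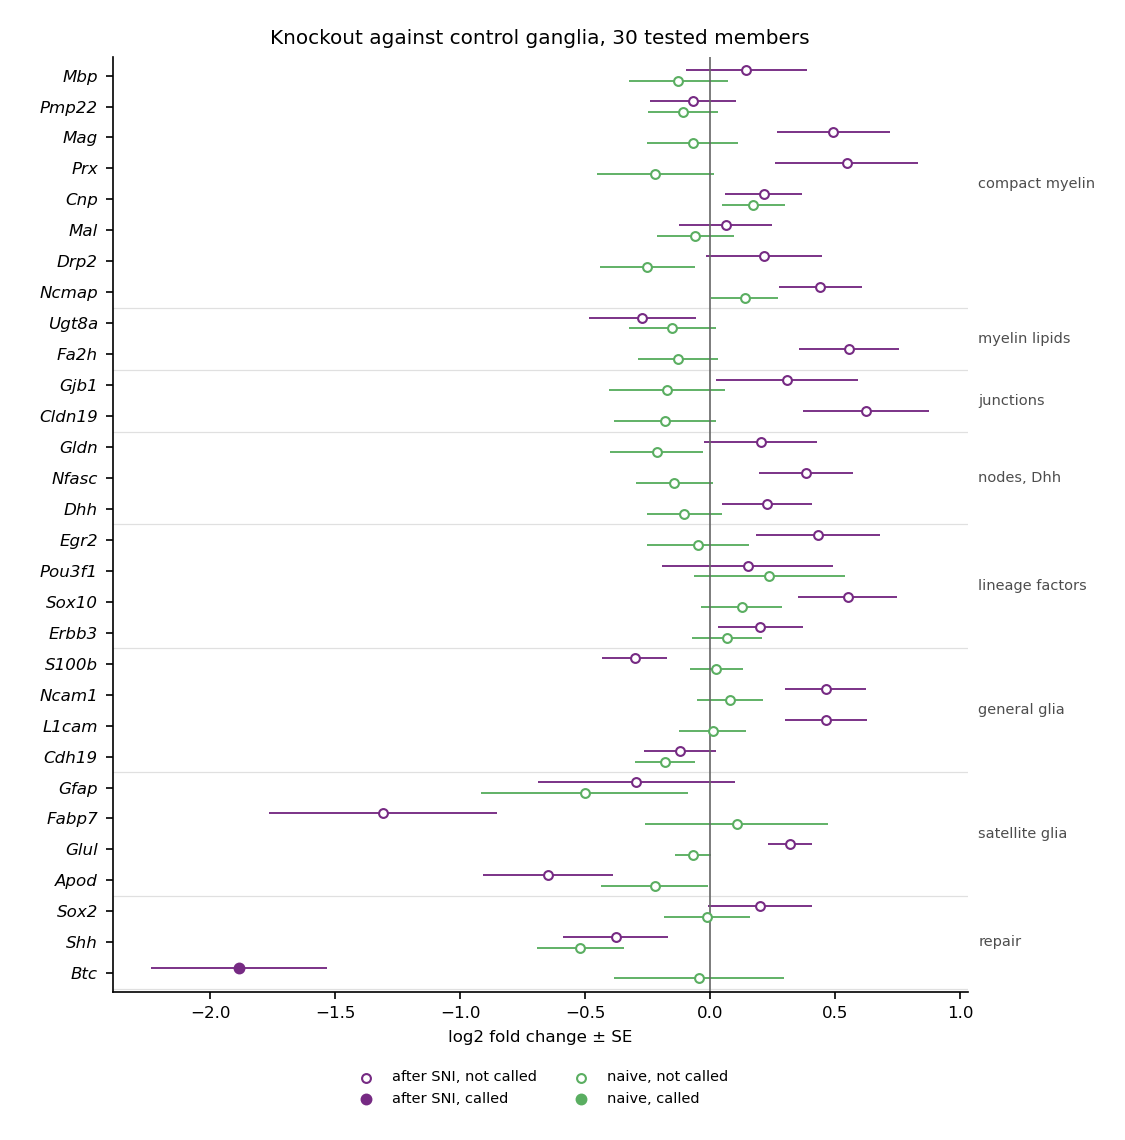
Log2 fold change ± SE (horizontal axis) of knockout against control ganglia for the 30 tested members (vertical axis, grouped by role), after SNI (upper point, purple) and in naive mice (lower point, green). The filled point is the member that passed, Btc after SNI at -1.88; in naive mice all members lay between -0.52 and 0.24.

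Further genes of the same cells were counted beside the members. With injury 7.17% of all tested genes rose in knockout mice and 2.12% in control mice. Between knockout and control, 1.89% of all tested genes passed in naive mice and 1.04% after SNI. A fit of the injured libraries alone called no gene between the genotypes. Of 11 tested repair genes outside the members, 6 rose with injury in knockout mice and 3 in control mice. They include Jun, the transcription factor of the repair state and also of injured neurons, at 1.66 and 1.12 on the log2 scale, Gap43, a growth-associated gene, at 0.67 and 1.03, and the matrix gene Tnc at 1.58 and 2.36. In naive knockout mice Gap43 was higher than in control mice, by 0.87. In whole ganglia Jun and Gap43 transcripts of glia and of neurons cannot be told apart. Of 21 further myelin-related genes 1 passed, Lgi4, a Schwann cell signal for myelination, at 0.51 in injured knockout mice. Of 16 further satellite glial genes Atp1b2, a sodium pump subunit, and Fasn, the fatty acid synthase, which adipocytes make as well, rose with injury in knockout mice (0.72 and 0.99), and both were also higher in knockout than in control mice after SNI (0.55 and 1.05). Of 4 astrocyte markers 1 passed, Aldh1l1. It rose with injury in both genotypes (1.14 in knockout and 0.72 in control mice). After SNI it was higher in knockout than in control mice (0.84), whereas the 3 other markers were below 0. With injury 2 of the 4 were above 0 in knockout mice and 3 in control mice.

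Markers of other cells moved in the same comparisons, in which 7.17% of all tested genes rose with injury in knockout mice and 2.12% in control mice. Of 12 macrophage markers 5 rose with injury in knockout mice and 7 in control mice, and their summed level was 408 to 516 and 315 to 585 CPM after SNI, against 294 to 433 and 244 to 312 CPM in naive knockout and naive control ganglia. Of 12 neuronal markers Tubb3 and Thy1 rose and Isl1 fell in injured knockout mice, and the sum was 20280 to 22340 CPM after SNI in knockout, 16370 to 20490 in control, 19170 to 20790 in naive knockout and 17740 to 21000 CPM in naive control ganglia. Of 3 tested perineurial markers Slc2a1 and Itgb4 rose in knockout mice, and of 8 endothelial markers Cdh5 and Flt1. None of 8 fibroblast markers passed. Their sum was highest, at 2442 CPM, in control SNI replicate 23, the library with the most Apod and Fabp7. Skeletal muscle markers summed to 154 to 1202 CPM in knockout SNI, 5.11 to 299 in control SNI, 18.4 to 214 in knockout naive and 4.83 to 102 CPM in control naive libraries, and none passed. Adipocyte markers summed to 4.55, 203 and 6.70 CPM in knockout SNI replicates 13, 19 and 21, to 9.07 to 54.5 CPM in control SNI, 3.46 to 11.3 in knockout naive and 3.42 to 33.2 CPM in control naive libraries. None of the 4 tested passed, though all 4 had an unadjusted p under 0.05 for injury in knockout mice (median log2 3.65). Replicate 19, where they were highest, is the library without which Gfap, Glul and Ncam1 lost their call in knockout mice. Without that library calls over all genes for injury in knockout mice also fell, from 1717 to 587. Gfap, Glul and Ncam1 kept log2 fold changes of at least 1.68, 0.34 and 0.59 in every fit that left out 1 library. The part of adipocytes and of the other cells in the glial values was not tested.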

How the data were processed

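The authors deposited 1 table of raw read counts per gene, for 39179 Ensembl identifiers in 15 libraries. Per the labels, total RNA isolated with Trizol went into a stranded mRNA kit. Per the submitters' processing notes, the tools were TopHat2 2.0.4, SAMtools, Cufflinks, HTSeq 0.6.1 and DESeq2, with the build GRCm38. The sources used here do not give the annotation release, the strand setting, the treatment of reads with several matches or the time after injury, so values of members that overlap other genes, or that share reads with similar genes, depend on unknown settings.

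Symbols, coordinates and 3′ UTRs came from GENCODE M21 on GRCm38. Genes were kept by filterByExpr (16976 of 27310 with a count, default minimum of 10 counts; the others held 0.131% of counts). A model of 4 group means was fitted to all libraries with edgeR 4.0.16 in R 4.3.3 (TMM factors, robust quasi-likelihood F test, 11 residual degrees of freedom, two-sided), with Benjamini-Hochberg adjustment over all tested genes and calls at an adjusted p under 0.05. CPM are TMM-scaled, and the SE is the log2 fold change divided by the root of F. The common biological coefficient of variation was 15.35%. Animals were the replicates. Members and gene lists were chosen with earlier results of these data known. Every member is accounted for, and members called are given in every library. Of other lists at most 4 called genes are named. The script was tested on simulated counts. Alternatives were median-of-ratios factors, no filter, DESeq2 1.42.0, the compared libraries alone, the Wnt1-Cre controls alone, and leaving out each library. Python 3.11.15 with pandas 2.3.3, NumPy 2.4.6 and matplotlib 3.10.9 made the tables and figures.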

Additional observations from a re-analysis of the deposited data

Results flagged for a closer look

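In 4 of 60 groups tested (30 members in the naive groups, which hold 4 or 5 libraries), 1 library stood apart from the others by the gap to its nearest neighbour over the whole range. Chance flags about 1 in 20. Cnp was at 361.5 CPM in knockout naive replicate 8, against 292.5 to 299.9 CPM in the other naive knockout libraries. That library was highest for 10 of the 12 myelin genes. Gjb1 was at 17.37 CPM in control naive replicate 3, against 11.63 to 12.6 CPM, in the library that was highest for all 12. Fa2h was lowest, at 33.41 CPM, in knockout naive replicate 5, against 40.56 to 41.41 CPM, and in the same library Ncam1 was highest, at 114.9 CPM, against 97.69 to 98.49 CPM. Whether the makeup of the dissected tissue differed in these libraries was not tested.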

How the results depend on the processing

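Leaving out 1 library at a time gave 0 members called in naive mice in each of 15 fits, 0 (without knockout SNI replicate 21) to 9 (without control SNI replicate 15) for knockout against control after SNI, 1 (without knockout SNI replicate 19) to 11 (without control SNI replicate 23) for injury in knockout mice, 1 (without control SNI replicate 18) to 4 for injury in control mice, and 0 to 5 (without control SNI replicate 15) for the difference between injury effects. Calls over all genes moved as well. For injury in knockout mice they went from 1717 in the main fit to 587 without knockout SNI replicate 19 and 4409 without control SNI replicate 23. For knockout against control after SNI they went from 177 to 63 without knockout SNI replicate 21 and 3558 without control SNI replicate 15. With the libraries of the compared groups alone 1 member (Shh) of 1017 genes called passed in naive mice and 0 of 0 after SNI. For injury, 12 members of 4438 genes called passed in knockout mice and 1 (Btc) of 213 in control mice. With the Wnt1-Cre controls alone, which leaves 1 injured control, some directions turned. Among members called in any setting, it turned for Nfasc (-0.0801) and Apod (0.32) after SNI and for Apod with injury in control mice (-0.0503). In the difference between injury effects it turned for Ncam1 (-0.0047) and Apod (0.57). Of the 12 myelin genes 11 were above 0 after SNI, against 10 in the main fit, so the list is not complete. Without the filter on low counts 2 members passed for injury in control mice (Btc and Gfap). DESeq2 and the other size factors left each count of members within 1.5 times, although DESeq2 after SNI called Glul and gave Btc no adjusted p. The causes were not tested. In all 99 alternatives the median log2 fold change of the members moved by less than an SD between the libraries of a compared group. Leaving out 1 library can hardly move it further than that, so this does not show that it is stable. The median of the 12 myelin genes for injury in knockout mice ran from -0.13 to 0.21 when 1 library was left out. No paired analysis was possible because no replicate number occurs in more than 1 group. The lone Cre control after SNI is assumed to vary like the other groups. Depth limits Btc, Gfap and Pou3f1, the members with the fewest counts per library beside Olig1.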
